A study of Mus musculus with 6 samples.

Results

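Collagen transcripts and genes of hepatic stellate cells were examined in bulk RNA sequencing of mouse liver. The members were all 43 genes of the count table whose symbol has the form of a collagen chain, together with 14 stellate cell genes, which gives 57 of the 22599 genes listed. They were divided into 10 fibrillar collagens, 6 basement-membrane collagens of type IV, 27 other collagens and the 14 stellate cell genes. Members were picked by gene name and not by a measured value, but with earlier results of these data known. Both groups carried 0 h of ischemia-reperfusion in their titles, and the treatment label of each library names liver ischemia-reperfusion. The control group, flox (n = 3 libraries), came from NcoR1fl/fl mice, whose genotype label is WT. The other group, NcoR1ΔHep (n = 3 libraries), came from NcoR1ΔHep mice, whose genotype label is knockdown NcoR1, NcoR1 being a corepressor of nuclear receptors. The sources used here do not give the promoter behind the deletion, which the name places in hepatocytes, or the strain, age and sex of the mice, and do not say whether each library came from its own mouse. P-values therefore measure the spread between these libraries, which is not stated to be that between mice.

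Collagens are trimers of chains wound into a triple helix. Fibrillar collagens form the fibres of scar and portal tracts, type IV collagen forms the sheet of basement membranes, and the remaining types decorate fibrils, form beaded filaments or span membranes. In a resting liver, stellate cells lie in the space between hepatocytes and sinusoidal endothelium, where they store vitamin A as retinyl esters. After injury they can become contractile myofibroblasts that secrete fibrillar collagen and contain smooth muscle actin. Other liver cells also make collagens: endothelial cells make type IV, and hepatocytes make type XVIII.

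The libraries held 36975231 to 38470468 counts each. Ncor1, the targeted gene, was at 7.07 ± 0.570 FPKM (fragments per kilobase of gene length, scaled to the library total) in the control group and 5.63 ± 0.886 FPKM in NcoR1ΔHep (SD over 3 libraries), with a log2 fold change of -0.31 (95% interval -0.80 to 0.17), so the genotypes rest on the labels. NcoR1ΔHep 1 stood apart from the other 5 libraries in sex-linked transcripts: the X-inactivation transcript Xist had 17138 counts there and 6 to 18 elsewhere, and the Y-linked gene Ddx3y 12 counts there and at least 2008 elsewhere. Values without NcoR1ΔHep 1 are given beside the main results for the classes and most named members, but not for the marker and pathway lists.

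No member differed between the genotypes by edgeR's quasi-likelihood test at an adjusted p of 0.05, where 0.0% of all 13205 tested genes did. Of the 57 members, 36 had enough counts to be tested. Only Col5a3, a minor fibrillar chain that was lower in NcoR1ΔHep, was under 0.05 before adjustment (adjusted p = 0.931 by edgeR). Of all tested genes, 3.35% were under 0.05 before adjustment, 1.43% as higher and 1.92% as lower. DESeq2 also called 0 members, with 4 of 55 at an unadjusted p under 0.05, against 612 of 20338 genes in that fit. Without NcoR1ΔHep 1, edgeR called 0 members, with 3 of 37 at an unadjusted p under 0.05, against 325 of 13391 genes. The groups did not overlap in FPKM in 2 tested members, Col4a4 (higher in NcoR1ΔHep) and Col5a3 (lower), against 7.56% of all tested genes (2.61% higher, 4.95% lower). Of the 36, 22 had a fold change above 0 and 14 below, with a median log2 fold change of 0.07. Over all 13205 tested genes, 7069 were above 0 and 6136 below, and the median was 0.03. The spread inside each group was wide. The median within-genotype SD of a tested member was 0.63 on the log2 CPM scale (CPM is the count scaled by the TMM-adjusted library total), and that of all tested genes was 0.38.

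**Figure D1:**
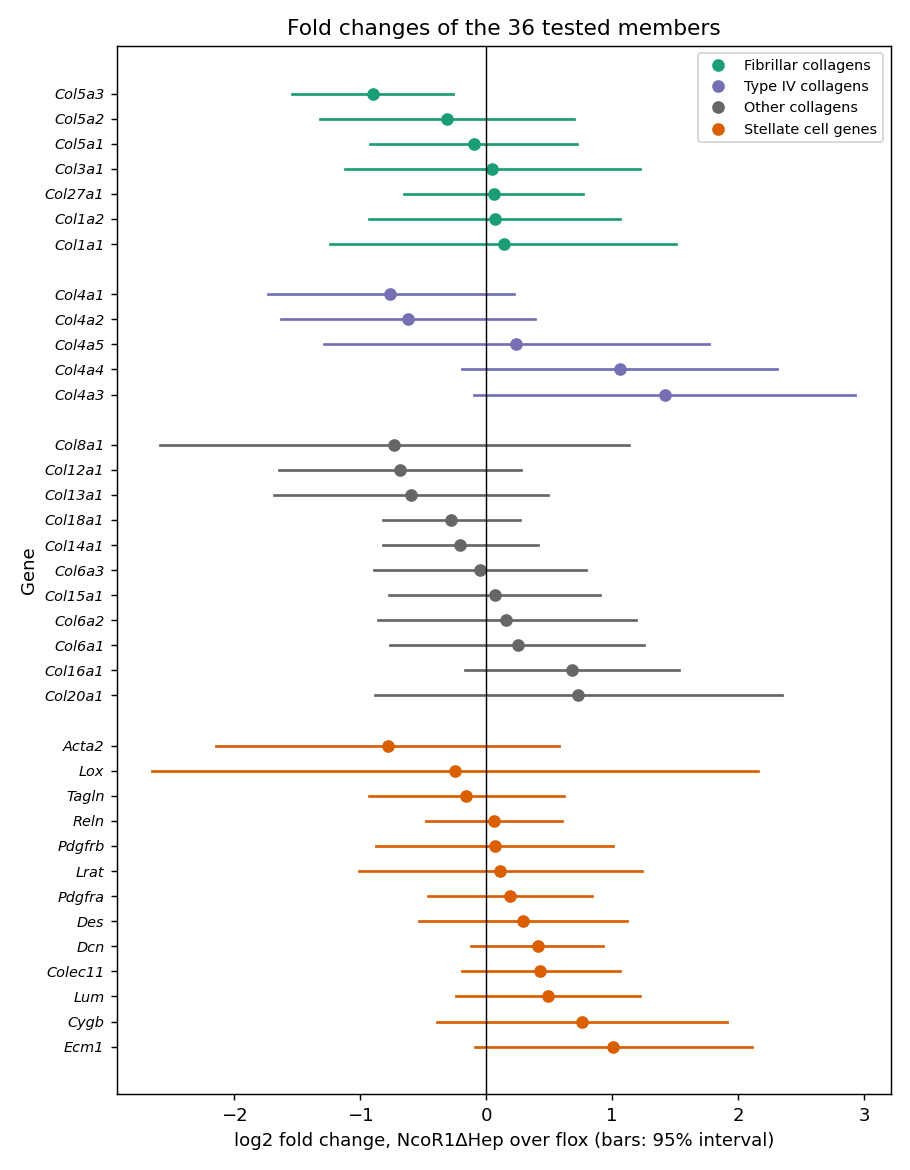
Log2 fold change of NcoR1ΔHep over flox (x axis) for each of the 36 tested members (y axis), grouped by class; points are edgeR estimates and bars 95% intervals. The interval of Col5a3, from -1.54 to -0.26, is the only one that leaves out 0.

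The larger pattern lay within the NcoR1ΔHep group, where libraries 1 and 2 were far apart. Of the 7 tested fibrillar collagens, 6 had their lowest CPM of all 6 libraries in NcoR1ΔHep 1, and 4 had their highest in NcoR1ΔHep 2. Over all tested genes, 28.3% were lowest in NcoR1ΔHep 1 and 10.96% highest in NcoR1ΔHep 2. Relative to each gene's own mean over the 6 libraries, the median fibrillar gene was at -1.02 log2 CPM in NcoR1ΔHep 1 and at 0.61 in NcoR1ΔHep 2. Flox 1 lay above flox 2 in 7 of 7 fibrillar genes, against 49.1% of all tested genes, with 0 of the 7 past 2-fold in CPM. Type IV was low in NcoR1ΔHep 1 as well, with a median of -1.08 and 3 of 5 genes lowest there. The stellate cell genes were mixed in NcoR1ΔHep 1, with a median of 0.20. There 5 of 13 tested had their highest CPM, against 29.1% of all tested genes, and 3, Acta2, Tagln and Lox, had their lowest. In bulk tissue, fewer cells of a type and less RNA per cell cannot be told apart.

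**Figure D2:**
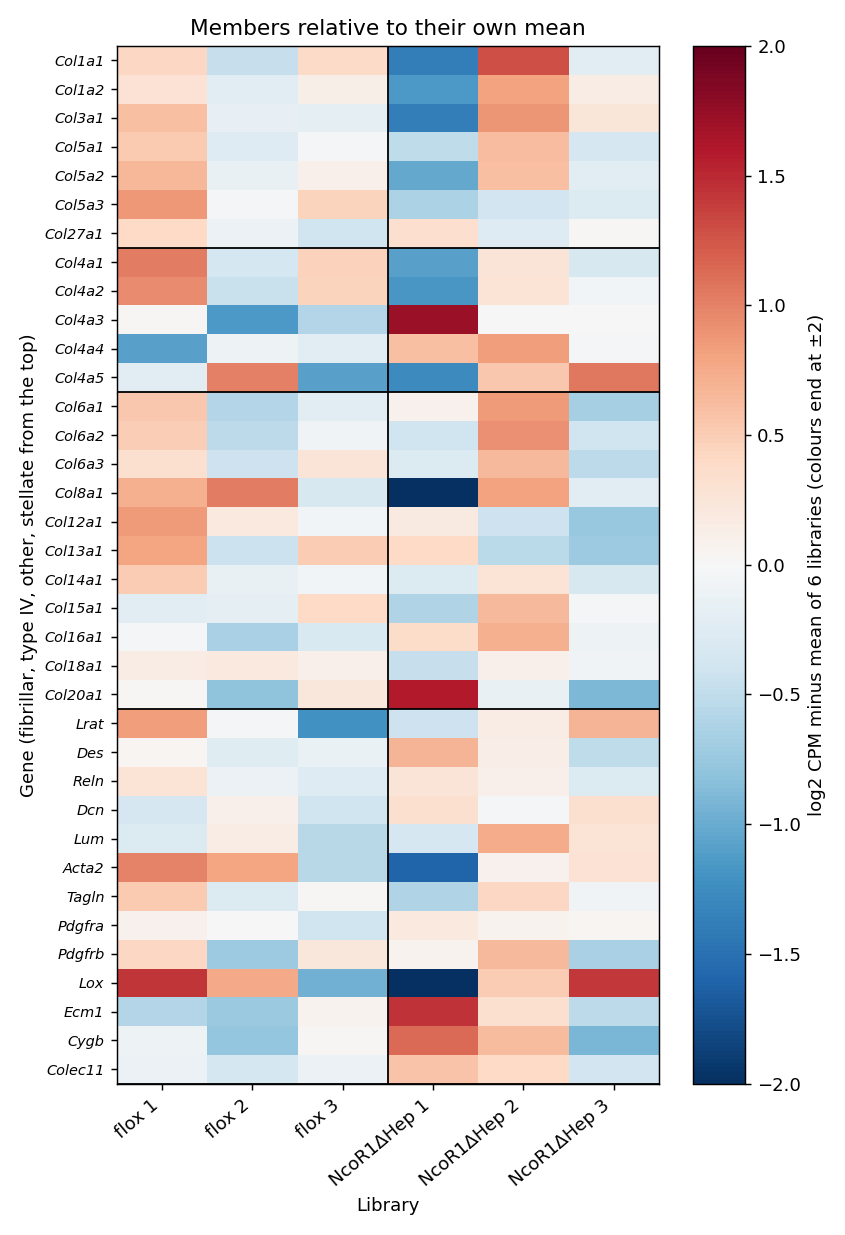
Each row is a tested member and each column a library; colour is log2 CPM minus the gene's mean over the 6 libraries, with colours ending at 2 in either direction. Fibrillar collagens except Col27a1 are blue in NcoR1ΔHep 1, where Ecm1, Cygb and Colec11 are red.

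For 2 genes of each order, the 250 bases before the annotated start are shown, since the genes of each pair had like orders over the NcoR1ΔHep libraries and the pairs had unlike ones. Col1a2 and Col3a1 were lowest in NcoR1ΔHep 1, and Ecm1 and Colec11 were highest there. The windows are those of RefSeq on GRCm38.p6, which held 43 of the 57 members. Capitals mark 3 short motifs, CCAAT and GGGCGG on either strand and TATAAA on the strand of the gene, and no matches overlapped. Col1a2 lies at chr6:4505368-4505617 (+ strand), Col3a1 at chr1:45311288-45311537 (+ strand), Ecm1 at chr3:95739570-95739819 (- strand) and Colec11 at chr12:28623331-28623580 (- strand).
Col1a2: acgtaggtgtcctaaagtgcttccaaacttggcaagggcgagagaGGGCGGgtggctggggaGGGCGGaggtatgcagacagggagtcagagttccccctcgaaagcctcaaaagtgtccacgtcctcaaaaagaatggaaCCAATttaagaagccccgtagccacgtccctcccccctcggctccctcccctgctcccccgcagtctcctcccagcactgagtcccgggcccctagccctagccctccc
Col3a1: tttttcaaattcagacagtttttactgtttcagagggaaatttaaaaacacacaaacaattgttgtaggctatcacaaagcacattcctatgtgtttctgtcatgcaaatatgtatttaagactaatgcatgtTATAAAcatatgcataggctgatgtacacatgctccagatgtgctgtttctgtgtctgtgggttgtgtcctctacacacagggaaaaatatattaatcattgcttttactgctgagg
Ecm1: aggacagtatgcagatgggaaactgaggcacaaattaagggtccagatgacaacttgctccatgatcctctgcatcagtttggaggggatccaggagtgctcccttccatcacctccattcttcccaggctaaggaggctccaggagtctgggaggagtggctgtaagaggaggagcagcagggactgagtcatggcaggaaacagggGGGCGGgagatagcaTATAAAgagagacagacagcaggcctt
Colec11: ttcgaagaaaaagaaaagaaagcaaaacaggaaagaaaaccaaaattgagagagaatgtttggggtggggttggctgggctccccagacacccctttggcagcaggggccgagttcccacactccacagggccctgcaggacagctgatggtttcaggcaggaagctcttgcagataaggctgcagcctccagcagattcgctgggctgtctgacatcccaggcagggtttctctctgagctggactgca
The Col1a2 window held 1 CCAAT, which starts 109 bases before the gene, and 2 GGGCGG. The Col3a1 window held a single TATAAA, 117 bases before the start. In the Ecm1 window, 1 GGGCGG and 1 TATAAA lay 42 and 27 bases before the start, and the Colec11 window held none of the 3. Among 32851 such windows of the genome, some of them from alternative starts of a gene, 33.8% held CCAAT, 32.7% GGGCGG and 7.59% TATAAA. The members of a pair thus shared no motif of these 3. A match is a string of letters and not a measured binding site.

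Collagens of type I and type III make up most fibres of liver scars. Per kilobase, Col3a1 was the highest of the class, followed by Col1a2 and Col1a1. Values are given for libraries 1, 2 and 3 of each group in that order. Col3a1, the single chain of type III collagen, was at 27.0, 13.3 and 13.96 FPKM in flox and at 6.55, 29.8 and 17.0 FPKM in NcoR1ΔHep. Col1a1, the chain present in 2 copies per type I trimer, was at 3.93, 1.80 and 3.40 FPKM in flox and at 1.08, 6.61 and 2.04 FPKM in NcoR1ΔHep. Col1a2, its partner chain, was at 6.49, 3.85 and 5.09 FPKM in flox and at 2.31, 8.50 and 4.77 FPKM in NcoR1ΔHep. All 3 genes had both their lowest and their highest library inside NcoR1ΔHep, so the groups overlapped completely. NcoR1ΔHep 2 exceeded NcoR1ΔHep 1 by 6.12-fold for Col1a1, 4.55-fold for Col3a1 and 3.67-fold for Col1a2. Between the genotypes, the log2 fold change was 0.14 for Col1a1 (95% interval -1.24 to 1.51), 0.05 for Col3a1 (-1.12 to 1.22) and 0.07 for Col1a2 (-0.93 to 1.06). The data are therefore compatible with differences of up to about the ends of these intervals in either direction. Leaving out NcoR1ΔHep 1 gave 0.58, 0.47 and 0.45 for Col1a1, Col3a1 and Col1a2, and leaving out NcoR1ΔHep 2 gave -0.86, -0.49 and -0.44. Leaving out NcoR1ΔHep 2 thus turned the sign of all 3 genes, which also turned under the replicate block and in limma fits of FPKM.

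Type V collagen, which sits inside type I fibrils and limits their width, was lower in level. Col5a1 was at 1.62, 0.791 and 0.981 FPKM in flox and at 0.762, 1.57 and 0.727 FPKM in NcoR1ΔHep. Col5a2 was at 1.17, 0.554 and 0.699 FPKM in flox and at 0.343, 1.02 and 0.514 FPKM in NcoR1ΔHep. Both had flox 1 and NcoR1ΔHep 2 as their 2 highest libraries, flox 1 being the higher in FPKM, and their groups overlapped (log2 fold changes -0.10, SE 0.36, and -0.31, SE 0.44). Without NcoR1ΔHep 1 they were 0.11 and 0.02. Col5a3 behaved otherwise. It was at 2.63, 1.19 and 1.73 FPKM in flox and at 0.886, 1.01 and 0.964 FPKM in NcoR1ΔHep, so that the 2 groups did not overlap. Its log2 fold change was -0.90 (SE 0.28, 95% interval -1.54 to -0.26), lower in 3 of 3 libraries, but not past the adjusted threshold (edgeR adjusted p = 0.931). The sign held when any 1 library was left out, with values from -1.10 to -0.64. Unlike Col1a1, Col5a3 was close to level across NcoR1ΔHep, at 0.953 ± 0.0620 FPKM (SD, n = 3) against 1.85 ± 0.730 FPKM in flox. Col27a1, a fibrillar chain known from cartilage, was at 0.862, 0.500 and 0.435 FPKM in flox and at 0.795, 0.497 and 0.537 FPKM in NcoR1ΔHep, with a log2 fold change of 0.06 (SE 0.31, and -0.09 without NcoR1ΔHep 1). As a class, the 7 tested fibrillar genes had a median log2 fold change of 0.05, or 0.11 without NcoR1ΔHep 1 and -0.52 without NcoR1ΔHep 2. The 3 fibrillar genes that were not tested, Col11a1, Col11a2 and Col24a1, had at most 30 counts in any library.

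**Figure D3:**
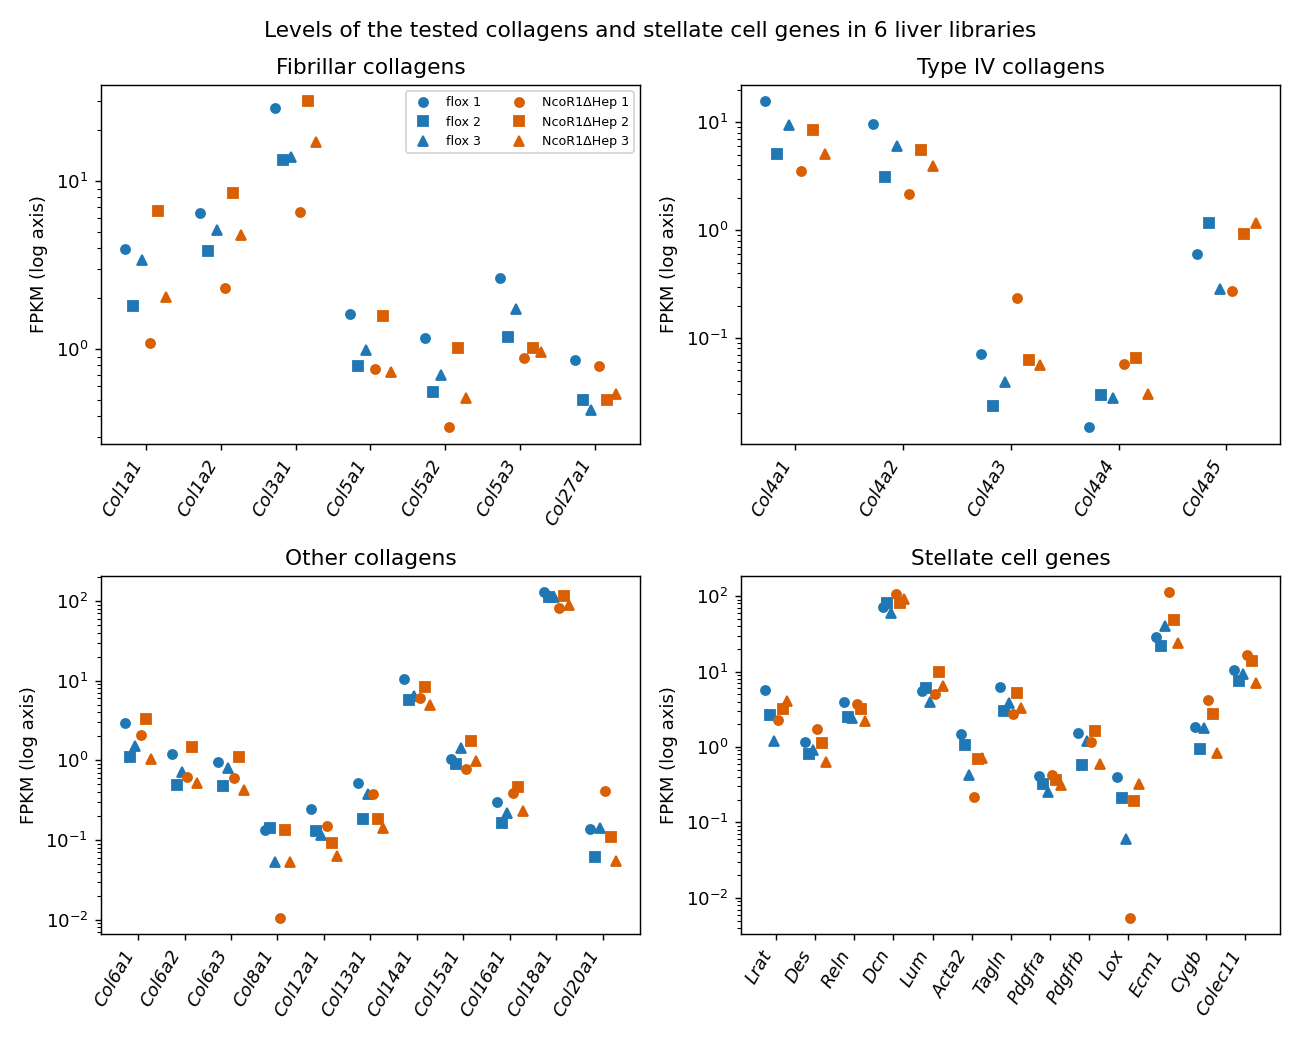
FPKM of each tested member in each of the 6 libraries, on a log axis, in 4 panels by class (blue flox, orange NcoR1ΔHep; circle, square and triangle are libraries 1, 2 and 3). Col18a1, Dcn and Ecm1 are the most abundant members, and the orange points of Col1a1 run from 1.08 to 6.61 FPKM.

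Among the type IV collagens, the common chains Col4a1 and Col4a2 were both lower on average in NcoR1ΔHep and remained tied to each other. Col4a1 was at 15.7, 5.10 and 9.37 FPKM in flox and at 3.51, 8.45 and 5.03 FPKM in NcoR1ΔHep. Col4a2 was at 9.66, 3.11 and 6.08 FPKM in flox and at 2.14, 5.55 and 3.91 FPKM in NcoR1ΔHep. Flox 1 was the highest and NcoR1ΔHep 1 the lowest library for both, and flox 2 lay below NcoR1ΔHep 2, so the groups overlapped. The log2 fold changes were -0.76 (95% interval -1.73 to 0.22) and -0.62 (-1.63 to 0.39), with an edgeR adjusted p of 0.931 for both. Without flox 1 they were -0.36 and -0.25, and without NcoR1ΔHep 1 they were -0.46 and -0.29. The 2 genes stand head to head in the genome. Their RefSeq starts on GRCm38.p6 lie at position 11312826 of chromosome 8 for Col4a1 (- strand) and 11312805 for Col4a2 (+ strand), so the first bases of both transcripts overlap over the 22 bases from chr8:11312805-11312826, printed on the + strand because both genes begin within them.
Col4a1-Col4a2: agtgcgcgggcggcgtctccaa
G and C make up 72.7% of this stretch. The FPKM ratio of Col4a1 to Col4a2 was 1.62, 1.64 and 1.54 in flox and 1.64, 1.52 and 1.29 in NcoR1ΔHep, a range of 1.28-fold. Over the same libraries Col4a1 itself ranged 4.47-fold and Col4a2 4.51-fold.

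The minor type IV chains were scarce and were named after their values were seen. Col4a3 and Col4a4 are chains of the network found in kidney and lung basement membranes. The counts of Col4a3 were 24, 8 and 13 (flox) and 79, 21 and 19 (NcoR1ΔHep), with a log2 fold change of 1.42 (95% interval -0.10 to 2.93) that was 0.55 without NcoR1ΔHep 1. The counts of Col4a4 were 6, 12 and 11 (flox) and 23, 26 and 12 (NcoR1ΔHep). Its groups did not overlap in FPKM, with 0.0149 to 0.0294 FPKM in flox and 0.0303 to 0.0656 FPKM in NcoR1ΔHep, and the gap between the nearest libraries was 12 counts in flox 2 against 12 in NcoR1ΔHep 3. The log2 fold change of Col4a4 was 1.06 (95% interval -0.19 to 2.31), and 1.03 without NcoR1ΔHep 1. Col4a5, an X-linked chain, was at 0.595, 1.17 and 0.285 FPKM in flox and at 0.273, 0.920 and 1.17 FPKM in NcoR1ΔHep. The lowest level of Col4a5 was in NcoR1ΔHep 1 and the next in flox 3, so its order was not that of Col4a1. Its log2 fold change was 0.24, and 0.69 without NcoR1ΔHep 1. Col4a6, its neighbour on the X chromosome, had 0 counts in each flox library and 3, 1 and 1 in NcoR1ΔHep, all within the 3 counts that a count of 0 allows. The 5 tested type IV genes had a median log2 fold change of 0.24 (0.55 without NcoR1ΔHep 1), which rests on which chains are counted: when a gene had to reach a CPM of 1 in 3 libraries, 3 chains were left and the median was -0.62.

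Markers of sinusoidal endothelial cells, which also make type IV collagen, were compared with Col4a1 and Col4a2. All 15 tested markers were lower on average in NcoR1ΔHep (median log2 fold change -0.65), none past the adjusted threshold and 2 at an unadjusted p under 0.05. Of all 13205 tested genes, 6136 had a fold change below 0, and 1.92% were under 0.05 before adjustment as lower. Kdr, the receptor for vascular endothelial growth factor, was at 8.67, 2.84 and 3.41 FPKM in flox and at 3.07, 2.15 and 1.91 FPKM in NcoR1ΔHep. Pecam1, an adhesion protein of endothelium, was at 9.70, 3.04 and 3.91 FPKM in flox and at 3.52, 2.94 and 1.69 FPKM in NcoR1ΔHep. Flox 1 was far above the rest for both. The summed level of the 15 markers was 215.1, 81.9 and 124.3 FPKM in flox and 132.7, 76.2 and 56.1 FPKM in NcoR1ΔHep, and none was at 0 in all libraries. Flox 1 had the highest CPM for 14 of the 15 markers, against 16.4% of all tested genes, and was also the highest library for Col4a1 and Col4a2. In NcoR1ΔHep 1 the order differed, since the marker sum was the highest of that group while Col4a1 and Col4a2 were at their lowest. The part of endothelial cells in the type IV values was not tested.

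Col18a1 dominated the other collagens. Type XVIII collagen carries endostatin at its end, and hepatocytes are a known source of it in liver. Col18a1 was at 129.6, 111.9 and 111.8 FPKM in flox and at 81.8, 114.2 and 90.1 FPKM in NcoR1ΔHep, the lowest being NcoR1ΔHep 1. It made up 58.4% to 73.2% of the summed FPKM of all 43 collagens in a library. In FPKM, NcoR1ΔHep 2 lay above flox 2 and flox 3, whereas in CPM scaled by TMM factors the NcoR1ΔHep values were all under the lowest of flox. The nearest libraries were close, at 0.097 log2 CPM relative to the gene's mean in NcoR1ΔHep 2 and 0.107 in flox 3. Of all 13205 tested genes, 435 were apart in CPM as higher and 730 as lower. The log2 fold change of Col18a1 was -0.28 (95% interval -0.82 to 0.27), and -0.12 without NcoR1ΔHep 1. Col18a1 ranged 1.58-fold over the libraries, less than any other tested member. Col15a1, the related chain of capillary basement membranes, was at 1.05, 0.899 and 1.43 FPKM in flox and at 0.773, 1.75 and 0.967 FPKM in NcoR1ΔHep (log2 fold change 0.07, SE 0.36, and 0.34 without NcoR1ΔHep 1).

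Col14a1 encodes a collagen on the surface of fibrils. It was at 10.6, 5.70 and 6.41 FPKM in flox and at 5.996, 8.31 and 4.88 FPKM in NcoR1ΔHep (log2 fold change -0.21, SE 0.27, and -0.11 without NcoR1ΔHep 1). In NcoR1ΔHep 1 it made up 19.5% of the collagen FPKM left after Col18a1, against 10.2% to 13.9% in the other libraries, while the share of Col3a1 there was 21.3% against 25.8% to 37.6%. The beaded-filament chains of type VI differed from type I in their lowest library. Col6a1 was at 2.91, 1.11 and 1.51 FPKM in flox and at 2.06, 3.32 and 1.02 FPKM in NcoR1ΔHep. Col6a2 was at 1.19, 0.493 and 0.711 FPKM in flox and at 0.617, 1.47 and 0.517 FPKM in NcoR1ΔHep. Col6a3 was at 0.941, 0.474 and 0.800 FPKM in flox and at 0.597, 1.08 and 0.422 FPKM in NcoR1ΔHep. All 3 chains, which assemble with each other, were highest in NcoR1ΔHep 2 and next highest in flox 1, and none had its lowest level in NcoR1ΔHep 1. Their log2 fold changes were 0.25, 0.16 and -0.05, each with a 95% interval that spans 0. Without NcoR1ΔHep 1 they were 0.32, 0.40 and 0.11, and without NcoR1ΔHep 2 -0.22, -0.43 and -0.50. The 11 tested other collagens had a median log2 fold change of -0.05 and ran from -0.73 to 0.73. The median was -0.43 without NcoR1ΔHep 2 and -0.11 without NcoR1ΔHep 1. The remaining 5, Col8a1, Col12a1, Col13a1, Col16a1 and Col20a1, were at 0.466 FPKM or less in all but the 0.519 FPKM of Col13a1 in flox 1.

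Of the 20 collagens that were not tested, Col22a1 and Col26a1 had 0 counts in all 6 libraries, which allows up to 3 counts in each, and 11 more had 0 counts in at least 1 library. None of the 20 exceeded 30 counts in a library. Col6a6 and Col25a1 were singled out after their values were seen, and they went opposite ways. Col6a6 had 18, 15 and 6 counts (flox) against 1, 2 and 3 (NcoR1ΔHep). Col25a1 had 7, 2 and 5 counts (flox) against 22, 7 and 12 (NcoR1ΔHep). In FPKM the groups of both did not overlap, nor did those of Col4a6 (higher), where 7.56% of all tested genes did not overlap.

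Ratios between the chains of type I, type IV and type VI trimers ranged less than the chains themselves. Col1a1 over Col1a2 was 0.605, 0.468 and 0.667 in flox and 0.467, 0.778 and 0.428 in NcoR1ΔHep, with means of 0.580 ± 0.102 and 0.558 ± 0.192 (SD, n = 3 each). The range of that ratio was 1.82-fold, where Col1a1 ranged 6.12-fold. Col3a1 over Col1a1 ran from 4.11 in flox 3 to 8.33 in NcoR1ΔHep 3, and the genotypes overlapped. Col6a1 over Col6a3 ran from 1.89 to 3.45 and Col6a2 over Col6a3 from 0.889 to 1.35, again with overlap. Of the 6 ratios computed, only Col5a3 over Col5a1, added after the values were seen, had groups that did not overlap. It was 1.63, 1.50 and 1.77 in flox and 1.16, 0.641 and 1.33 in NcoR1ΔHep. No test was made of these ratios.

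**Figure D4:**
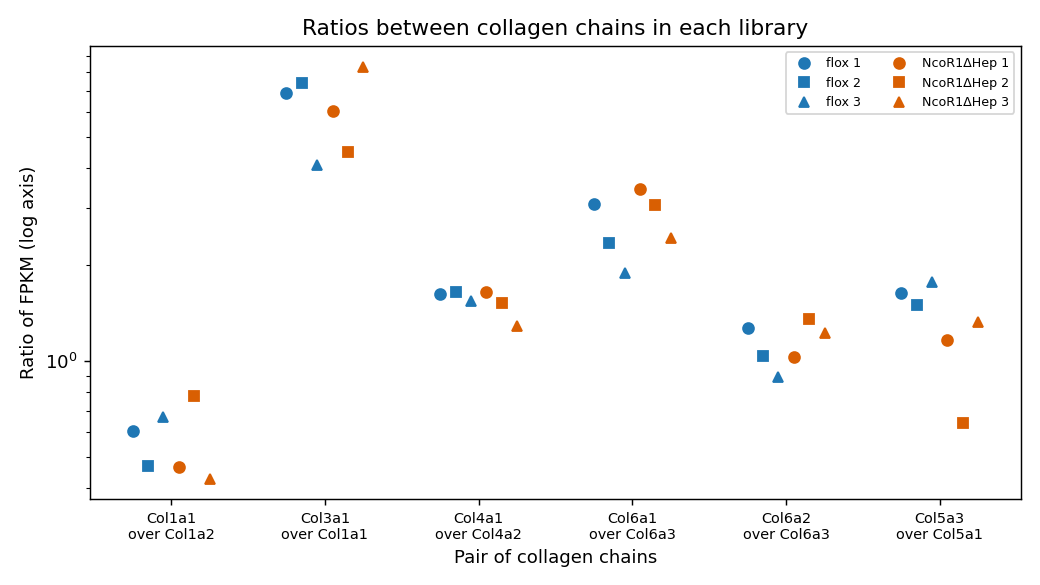
Ratio of FPKM between pairs of collagen chains (log axis) in each library; colours and symbols mark genotype and library number. The Col4a1 to Col4a2 points lie between 1.29 and 1.64, and the Col5a3 to Col5a1 points of NcoR1ΔHep all lie below those of flox.

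All 14 stellate cell genes had counts in every library, and 13 were tested. Their median log2 fold change was 0.19 (0.25 without NcoR1ΔHep 1), with 10 above 0 and 3 below, none past the adjusted threshold and none with groups that did not overlap. Of all 13205 tested genes, 7069 had a fold change above 0. Lrat, the enzyme that esterifies retinol for storage, was at 5.70, 2.62 and 1.21 FPKM in flox and at 2.31, 3.23 and 4.13 FPKM in NcoR1ΔHep. The flox libraries alone thus spanned the whole range of Lrat. Reln, which encodes the secreted protein reelin, was at 3.92, 2.50 and 2.40 FPKM in flox and at 3.73, 3.15 and 2.18 FPKM in NcoR1ΔHep. Des, the intermediate filament desmin, was at 1.16, 0.797 and 0.909 FPKM in flox and at 1.75, 1.13 and 0.638 FPKM in NcoR1ΔHep. The log2 fold changes of Lrat, Reln and Des were 0.11, 0.06 and 0.29 (SE 0.49, 0.24 and 0.36), within the error of each. Without NcoR1ΔHep 1 they were 0.36, -0.05 and -0.03.

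Ecm1, Cygb and Colec11 were highest in NcoR1ΔHep 1, as were Des, Pdgfra and, in FPKM, Dcn. Ecm1, a secreted matrix glycoprotein, was at 28.7, 21.7 and 40.2 FPKM in flox and at 113.4, 48.8 and 24.2 FPKM in NcoR1ΔHep. Its log2 fold change of 1.01 (95% interval -0.09 to 2.11) was 0.34 without NcoR1ΔHep 1. Cygb, the globin of stellate cells, was at 1.82, 0.944 and 1.76 FPKM in flox and at 4.15, 2.75 and 0.825 FPKM in NcoR1ΔHep. Colec11, a collectin of the complement system, was at 10.6, 7.55 and 9.36 FPKM in flox and at 16.3, 13.7 and 7.07 FPKM in NcoR1ΔHep. For Ecm1, Cygb and Colec11, NcoR1ΔHep 1 and NcoR1ΔHep 2 lay above every flox library and NcoR1ΔHep 3 did not. Without NcoR1ΔHep 1 the log2 fold change of Cygb went from 0.76 to 0.31 and that of Colec11 from 0.43 to 0.25.

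Markers of stellate cells outside the members were mixed in NcoR1ΔHep 1. Of 18, all tested, 8 had their highest CPM there, against 29.1% of all tested genes, and 3 their lowest. Among them 13 had a fold change above 0, and 1 had an unadjusted p under 0.05. Over all 13205 tested genes, 7069 were above 0 and 3.35% were under 0.05 before adjustment. Tcf21, a transcription factor of this lineage, was at 2.25, 1.82 and 2.24 FPKM in flox and at 5.60, 4.23 and 2.22 FPKM in NcoR1ΔHep (log2 fold change 0.93, SE 0.34; edgeR adjusted p = 0.931). Hand2, another lineage factor, was at 1.05, 0.861 and 1.77 FPKM in flox and at 4.49, 2.47 and 1.07 FPKM in NcoR1ΔHep (1.10, SE 0.49). The summed level of the 18 markers was 102.4 to 141.3 FPKM in flox and 115.3 to 131.5 FPKM in NcoR1ΔHep, so the sum did not single out NcoR1ΔHep 1. A sum leans on abundant genes, and Steap4 was at 16.2 FPKM in NcoR1ΔHep 1 and at 35.0 to 56.4 FPKM elsewhere. Relative to each gene's own mean, the median marker was at 0.43 log2 CPM in NcoR1ΔHep 1, the highest of the 6 libraries, and at -0.16 to 0.14 elsewhere.

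The proteoglycans Dcn and Lum, which bind collagen fibrils, had fold changes above 0. Dcn, decorin, was at 71.0, 80.8 and 60.2 FPKM in flox and at 107.3, 80.6 and 90.6 FPKM in NcoR1ΔHep, where NcoR1ΔHep 2 was just under flox 2. Lum, lumican, was at 5.44, 6.10 and 3.95 FPKM in flox and at 5.003, 9.998 and 6.42 FPKM in NcoR1ΔHep. The log2 fold changes were 0.41 for Dcn (95% interval -0.12 to 0.93) and 0.49 for Lum (-0.24 to 1.22), and leaving out any 1 library kept both above 0 (0.31 to 0.58 and 0.19 to 0.74; 0.37 and 0.74 without NcoR1ΔHep 1). Dcn had its highest FPKM in NcoR1ΔHep 1, where the fibrillar collagens except Col27a1 were low.

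Genes that mark contractile or activated stellate cells differed widely in level. Acta2, smooth muscle actin, was at 1.47, 1.06 and 0.429 FPKM in flox and at 0.217, 0.700 and 0.719 FPKM in NcoR1ΔHep. Tagln, an actin-binding protein of the same cells, was at 6.18, 2.97 and 3.85 FPKM in flox and at 2.73, 5.21 and 3.31 FPKM in NcoR1ΔHep. Both had their highest level in flox 1 and their lowest in NcoR1ΔHep 1, and the groups overlapped (log2 fold changes -0.78, SE 0.59, and -0.16, SE 0.34). Without NcoR1ΔHep 1 the values were -0.37 for Acta2 and 0.08 for Tagln, and without flox 1 -0.47 and 0.11. Lox, which cross-links collagen, had counts of 76, 40 and 11 (flox) and 1, 35 and 60 (NcoR1ΔHep), the widest spread of any tested member. Its log2 fold change was -0.25 (SE 1.05), and 0.34 without NcoR1ΔHep 1. Timp1, an inhibitor of matrix metalloproteinases induced on activation, had counts of 7, 5 and 1 (flox) and 1, 12 and 1 (NcoR1ΔHep) and was not tested. Pdgfra and Pdgfrb, receptors for platelet-derived growth factor, ran from 0.256 to 0.423 FPKM and from 0.583 to 1.65 FPKM over the 6 libraries. Their log2 fold changes were 0.19 (SE 0.28) and 0.07 (SE 0.41), and 0.15 and 0.10 without NcoR1ΔHep 1. Pdgfrb had the order of type VI collagen, high in NcoR1ΔHep 2 and flox 1 and low in flox 2 and NcoR1ΔHep 3.

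Other cells that hold collagens or contractile genes were checked by their markers. The 7 smooth muscle markers, 1 of them Des, summed to 1.80 to 2.73 FPKM in flox and 1.35 to 2.97 FPKM in NcoR1ΔHep. Myh11, smooth muscle myosin, was at 0.309, 0.232 and 0.202 FPKM in flox and at 0.121, 0.168 and 0.161 FPKM in NcoR1ΔHep, lower in 3 of 3 libraries (log2 fold change -0.68, SE 0.36; edgeR adjusted p = 0.931). The 10 portal fibroblast markers summed to 8.34 to 11.7 FPKM in flox and 11.2 to 12.8 FPKM in NcoR1ΔHep. Of the 8 tested, 4 had their lowest CPM in NcoR1ΔHep 1, against 28.3% of all tested genes, and 1 its highest. Relative to each gene's own mean, the median portal fibroblast marker was at -0.53 log2 CPM in NcoR1ΔHep 1, the lowest of the 6 libraries. In that list Gas1, a membrane protein of quiescent cells, was at 1.09, 1.70 and 1.22 FPKM in flox and at 6.24, 1.87 and 5.61 FPKM in NcoR1ΔHep (1.78, SE 0.47; edgeR adjusted p = 0.931), higher in 3 of 3 libraries. Fbln2 of the same list was lower in 3 of 3 (-1.04, SE 0.50), so the list had no common direction. Mesothelial markers (7) summed to 0.578 to 1.11 FPKM in flox and 0.740 to 2.31 FPKM in NcoR1ΔHep, highest in NcoR1ΔHep 1. Of these, Gpm6a was at 0.200, 0.249 and 0.251 FPKM in flox and at 0.578, 0.241 and 0.460 FPKM in NcoR1ΔHep, and Krt19, a keratin also found in bile duct cells, was at 0.893, 0.294 and 0.267 FPKM in flox and at 0.528, 1.21 and 0.151 FPKM in NcoR1ΔHep. Kupffer cell markers (10) summed to 174.9 to 277.9 FPKM in flox and 116.3 to 292.8 FPKM in NcoR1ΔHep, highest in NcoR1ΔHep 2. Cd68, a lysosomal protein of macrophages, was at 12.5, 7.71 and 12.4 FPKM in flox and at 8.30, 8.04 and 4.53 FPKM in NcoR1ΔHep. Vsig4, a complement receptor of Kupffer cells, was at 25.2, 18.3 and 21.6 FPKM in flox and at 14.9, 20.6 and 13.7 FPKM in NcoR1ΔHep. Both overlapped between the groups. Cholangiocyte markers (7) summed to 27.7 to 36.7 FPKM in flox and 26.0 to 104.9 FPKM in NcoR1ΔHep, with Spp1, osteopontin, at 99.0 FPKM in NcoR1ΔHep 2 and at 21.0 to 33.7 FPKM elsewhere. Epcam, an adhesion protein of bile duct epithelium, was at 0.473, 0.227 and 0.367 FPKM in flox and at 1.13, 1.04 and 0.338 FPKM in NcoR1ΔHep. Of the fibrillar collagens, Col1a1, Col1a2 and Col3a1 had their highest FPKM in NcoR1ΔHep 2, and the part of these cells in the collagen and stellate values was not tested. No marker of any list was at 0 in all 6 libraries. The 8 hepatocyte markers, Alb among them, summed to at least 49856 FPKM in every library. Tat, a tyrosine-degrading enzyme, was at 217.0, 205.2 and 290.8 FPKM in flox and at 435.6, 326.5 and 413.3 FPKM in NcoR1ΔHep, without overlap. Apoa1, an apolipoprotein, ran from 6854 to 12640.1 FPKM, with overlap.

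The machinery around collagen showed no called gene either. Of 26 tested genes of collagen folding, processing and cross-linking, 9 were above 0 and 17 below (median log2 fold change -0.16), 0 passed the adjusted threshold and 2 had an unadjusted p under 0.05. Over all 13205 tested genes, 7069 were above 0 and 6136 below, and 3.35% were under 0.05 before adjustment. Plod2, a lysyl hydroxylase of collagen, was at 0.0418, 0.0358 and 0.0401 FPKM in flox and at 0.0932, 0.156 and 0.0539 FPKM in NcoR1ΔHep (1.36, SE 0.50; edgeR adjusted p = 0.931). Loxl4, a cross-linking enzyme, was at 1.89, 0.801 and 0.149 FPKM in flox and at 0.204, 0.310 and 0.167 FPKM in NcoR1ΔHep (-1.99, SE 0.74). Loxl4 was high in flox 1 and flox 2, and flox 3 lay below every NcoR1ΔHep library. Of 25 tested genes of other matrix proteins, 19 were below 0 (median -0.30), and 17 had their highest CPM in flox 1, against 16.4% of all tested genes. In NcoR1ΔHep 1, 14 had their lowest CPM, against 28.3%. In that list the basement-membrane protein Nid1 was at 6.37, 2.79 and 2.43 FPKM in flox and at 1.53, 2.77 and 2.36 FPKM in NcoR1ΔHep. Matrix proteases and their inhibitors (13 tested) had a median of 0.10, with 9 above 0 and 4 below. Adamts1, a secreted protease, was at 2.47, 1.54 and 2.17 FPKM in flox and at 1.05, 1.92 and 1.21 FPKM in NcoR1ΔHep (-0.53, SE 0.29). Mmp11, a metalloproteinase, was at 0.127, 0.0795 and 0.118 FPKM in flox and at 0.187, 0.152 and 0.258 FPKM in NcoR1ΔHep, without overlap (0.92, SE 0.51).

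Ligands, receptors and mediators of TGF-beta and PDGF signalling, which drive stellate cell activation, had 12 of 19 tested genes above 0 and a median log2 fold change of 0.12. Of all 13205 tested genes, 7069 were above 0, with a median of 0.03. Smad3, which carries the TGF-beta signal to the nucleus, was at 1.18, 1.29 and 1.17 FPKM in flox and at 1.54, 1.59 and 1.74 FPKM in NcoR1ΔHep, higher in 3 of 3 libraries without passing (0.45, SE 0.23; edgeR adjusted p = 0.931). Pdgfa, a ligand of Pdgfra, was at 0.355, 0.190 and 0.281 FPKM in flox and at 0.250, 0.601 and 0.557 FPKM in NcoR1ΔHep (0.83, SE 0.43), with overlap. Of the collagen receptors, 6 of 8 were tested, 3 above 0 and 3 below. Itga1, an integrin chain that binds type IV collagen, was at 3.86, 2.62 and 2.40 FPKM in flox and at 1.53, 1.78 and 2.51 FPKM in NcoR1ΔHep (-0.55, SE 0.29). Ddr1, a receptor kinase for collagen, was at 0.111, 0.0314 and 0.0794 FPKM in flox and at 0.106, 0.278 and 0.0416 FPKM in NcoR1ΔHep (0.96, SE 0.70). Both overlapped. None of these genes passed the edgeR threshold, at which 0.0% of all tested genes were called.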

How the data were processed

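Liver RNA of 6 libraries was analysed from 2 deposited tables. The first table holds read counts per gene symbol, whole numbers that the authors deposited without normalization, as the values show. The other holds the authors' FPKM. Dividing each count by its FPKM and by the library total gave a gene length that was whole within 0.01 in 100% of the 12656 genes checked. The submitters' processing notes list GRCm38, mm10 and hg38 with no role. For the aligner, read counter and strand the entry is: not given in the sources used here. Reads where Col4a1 and Col4a2 overlap can therefore not be assigned with certainty.

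Genes passed filterByExpr with a minimum count of 10 and a minimum total of 15. After TMM scaling, the genotypes were tested with edgeR 4.0.16 under R 4.3.3 (quasi-likelihood, no block). P-values are two-sided and were adjusted over 13205 genes by the Benjamini-Hochberg method, with a threshold of 0.05. Standard errors come from the F statistic. FPKM levels carry no TMM scaling. Classes and lists received no test. Values in every library were given for the main collagen chains, the 14 stellate cell genes except Pdgfra and Pdgfrb, and any member with an unadjusted p under 0.05. They were also given for the 2 genes with the smallest p in each further list, except Fbln2, Spp1 and Apoa1. Other genes named were chosen after their values were seen. The members and lists were chosen with earlier results of these data known. On simulated counts for this comparison (13205 genes), the edgeR test called 11.2% of the genes with a 2-fold change and 78.1% of those with a 4-fold change. The simulated spread followed the trend over all genes. The members had a wider median within-genotype SD (0.63 against 0.38 on the log2 CPM scale), so these shares may be too high for them. Alternatives were DESeq2 1.42.0, RLE factors, total counts only, other count filters, a replicate block, limma 3.58.1 on log2(FPKM + 1) and log2(FPKM + 0.1), and leaving out each library. For type IV, an alternative added Col15a1 and Col18a1.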

Additional observations from a re-analysis of the deposited data

How the results depend on the processing

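No member was called under any alternative. Over all genes the count of calls was 0 in each edgeR and limma setting, and DESeq2 called 5 genes, none a member. The type IV median log2 fold change of 0.24 became -0.62 with CPM at least 1 in 3 libraries, -0.54 in limma on log2(FPKM + 1) and -0.64 on log2(FPKM + 0.1), and it ran from -0.26 to 0.99 when 1 library was left out. All 3 settings left 3 chains instead of 5. The stellate median ran from 0.16 to 0.38 when 1 library was left out and was 0.08 in limma on log2(FPKM + 1). The median of the other collagens was -0.43 without NcoR1ΔHep 2.

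Of 31 named members, 13 kept their sign in every alternative in which they were fitted. Among these, Col4a3 and Col4a4 were absent from the fit with CPM at least 1 in 3 libraries and from both limma fits. Under the replicate block the log2 fold change was -0.26 for Col1a1, -0.11 for Col1a2 and -0.12 for Col3a1, with 0 genes called and 175 under an unadjusted p of 0.05 (443 without the block). Same-numbered libraries did not pair: their deviations correlated at 0.0189, -0.328 and -0.468, and not every library correlated best with its own number. In limma with pseudocounts 1 and 0.1, Col1a1 was at -0.11 and -0.22, Col1a2 at -0.09 and -0.14 and Col3a1 at -0.17 and -0.20. Col3a1 was at -0.02 with total counts only, and Col15a1 at -0.01 in limma with pseudocount 0.1.

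Leaving out 1 library turned the sign of 18 members. Their log2 fold changes ran from -0.86 to 0.58 for Col1a1, -0.44 to 0.45 for Col1a2, -0.49 to 0.47 for Col3a1, -0.26 to 0.99 for Col4a5, -0.54 to 0.16 for Col5a1 and -0.82 to 0.02 for Col5a2. They ran from -0.22 to 0.64 for Col6a1, -0.43 to 0.48 for Col6a2, -0.50 to 0.16 for Col6a3, -0.43 to 0.03 for Col14a1, -0.32 to 0.34 for Col15a1 and -0.11 to 0.33 for Col27a1. For the stellate cell genes the ranges were -0.26 to 0.72 for Lrat, -0.03 to 0.54 for Des, -0.05 to 0.24 for Reln, -0.44 to 0.11 for Tagln, -0.30 to 0.33 for Pdgfrb and -1.19 to 0.38 for Lox. Depth limited the scarce chains, and 21 members had too few counts for a test.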
